A study of Caenorhabditis elegans with 2 samples.

Results

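Cytochrome P450 genes named cyp were taken from a table of expression in the nematode Caenorhabditis elegans by their names, and 80 of the 19874 genes analysed belonged to the family. Both samples came from mixed-stage cultures of 1 strain kept at 20 °C on bacteria. The strain is a double mutant, daf-2(e1370);daf-12(m20). daf-2 encodes the worm's insulin-like receptor, in which e1370 reduces function, and daf-12 encodes the receptor for the steroid hormones that decide between growth and dauer arrest. The 2 samples form 1 group and are named replicates 1 and 2 in the labels, which do not say whether they came from separate cultures. No other genotype was analysed here, so no value shows that a cyp gene was raised or lowered by either mutation.

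Cytochrome P450 enzymes are haem proteins that insert an oxygen atom into small lipid-soluble substrates. In the worm they modify foreign compounds, sterols and fatty acids, many of them in the intestine, and most draw their electrons from a reductase in the endoplasmic reticulum. The number in a cyp name gives the family, the letter the subfamily and the last number the gene. Families are grouped into older clans, of which the worm has CYP2, CYP3, CYP4 and a mitochondrial one. The CYP2 and CYP3 clans of animals hold many enzymes that act on foreign compounds, and the CYP4 clan many that act on fatty acids.

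Expression was given as RPKM, reads scaled to gene length and library size. Depth estimated from the steps between low values was about 10500000 reads in replicate 1 and 14600000 in replicate 2. In a gene of 1500 coding bases, the 3 reads taken as the floor were worth 0.190 RPKM in the first library and 0.137 RPKM in the second. Such limits and all Poisson intervals cover counting error only. In bulk RNA, fewer cells of a type and less RNA per cell cannot be told apart. The 5 intestinal markers were at a mean of 22.5 to 2538 RPKM, the 3 adult hermaphrodite markers at 2602 to 3055 RPKM, the 2 oocyte markers at 126 and 134 RPKM and the 2 molting markers at 26.8 and 58.0 RPKM. The early embryo markers end-1 and med-1 were at 0 to 0.36 RPKM, so the early embryos that a mixed-stage label would include left little signal in these 2 genes. The male neuron markers pkd-2 and lov-1 were at a mean of 0.215 RPKM or less. Of the dauer markers, cut-1 was at a mean of 0.090 RPKM and col-40 at 2.60 RPKM, and of the sperm markers, msp-142 was at 51.8 RPKM and spe-9 at 0.74 RPKM.

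The cyp genes were a family of low to middle level. Of the 80 members, 57 had a mean of at least 1 RPKM, which is 71.3% of the family beside 72% of all genes. A mean of at least 10 RPKM was reached by 26 members, 32.5% beside 42% of all genes. None reached 100 RPKM, a level passed by 7.63% of all genes. The median of the family was 3.61 and 3.44 RPKM in the replicates, against 6.21 and 6.13 RPKM for all genes. The members added up to 659 RPKM in replicate 1 and 625 RPKM in replicate 2, or 0.0632% and 0.0588% of all RPKM. Just inside the limit of 1 RPKM lay cyp-13A9 at 1.08 and cyp-14A3 at 1.02 RPKM, and just outside it cyp-35A3 at 0.90 and cyp-33C2 at 0.88 RPKM. At the limit of 10 RPKM the neighbours were cyp-14A5 at 10.8 RPKM inside and cyp-33C7 at 8.78 RPKM outside.

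A few members carried much of this sum. The 10 highest held 43.2% of the family's RPKM in replicate 1 and 42.8% in replicate 2, and the 20 highest held 69.4% and 68.8%. The first was cyp-25A2, of the CYP3 clan, with 41.2 and 41.4 RPKM in replicates 1 and 2 (mean 41.3 ± 0.15, SD, n = 2, as for all means below). It rested on about 654 and 915 reads, and the 95% interval (exact Poisson) was 38.1 to 44.4 RPKM in replicate 1 and 38.8 to 44.2 RPKM in replicate 2. In the WBcel235 assembly it is a protein-coding gene with 8 coding exons on chromosome III, from 3835221 to 3837211. Its replicates lay above those of every other member.

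Next came cyp-35A2, a gene with a known part in fat storage, at 35.5 and 34.5 RPKM (mean 34.995 ± 0.74). Its values overlapped those of cyp-34A8, at 35.7 and 32.2 RPKM (mean 33.9 ± 2.44). Both lie on chromosome V, cyp-35A2 from 7362319 to 7364182 and cyp-34A8 from 3964797 to 3967823. After a gap, cyp-31A2 stood at 28.4 and 25.8 RPKM, followed by cyp-34A9 at 26.0 and 24.7 RPKM, cyp-29A2 at 25.1 and 23.1 RPKM and cyp-31A5 at 23.9 and 22.3 RPKM. Each of these overlapped the next in its replicate values. cyp-44A1, the worm's P450 of the mitochondrial clan, was at 25.7 and 20.5 RPKM, and cyp-25A1 at 22.3 and 22.98 RPKM. The last 3 of the 12 highest were cyp-13A5 at a mean of 20.7 ± 0.66 RPKM, cyp-33E1 at 20.2 ± 1.4 RPKM and cyp-43A1 at 19.015 ± 1.62 RPKM. Among the 11 steps in the order of these 12 genes, the replicates of both neighbours were separate at 3, and over all 79 steps of the family at 12. The exact order is therefore not resolved for most members.

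At the other end, 23 members had a mean under 1 RPKM. Of the 74 members with a coding length, 5 were at or under 3 estimated reads in both replicates, beside 12.7% of all such genes. They were cyp-25A6, cyp-33C11, cyp-35A1, cyp-35A4 and cyp-35B3, and their expression was not detectable in these values. How reads that fit several members were assigned is not known, so values near 0 may not mean that RNA was absent. The same limit applies to levels compared within any subfamily. Of the family, 3 members were listed at 0 in replicate 2, and these were cyp-35B3 at 0.19 RPKM in replicate 1, cyp-25A5 at 0.40 RPKM and cyp-34A3 at 0.13 RPKM.

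**Figure D1:**
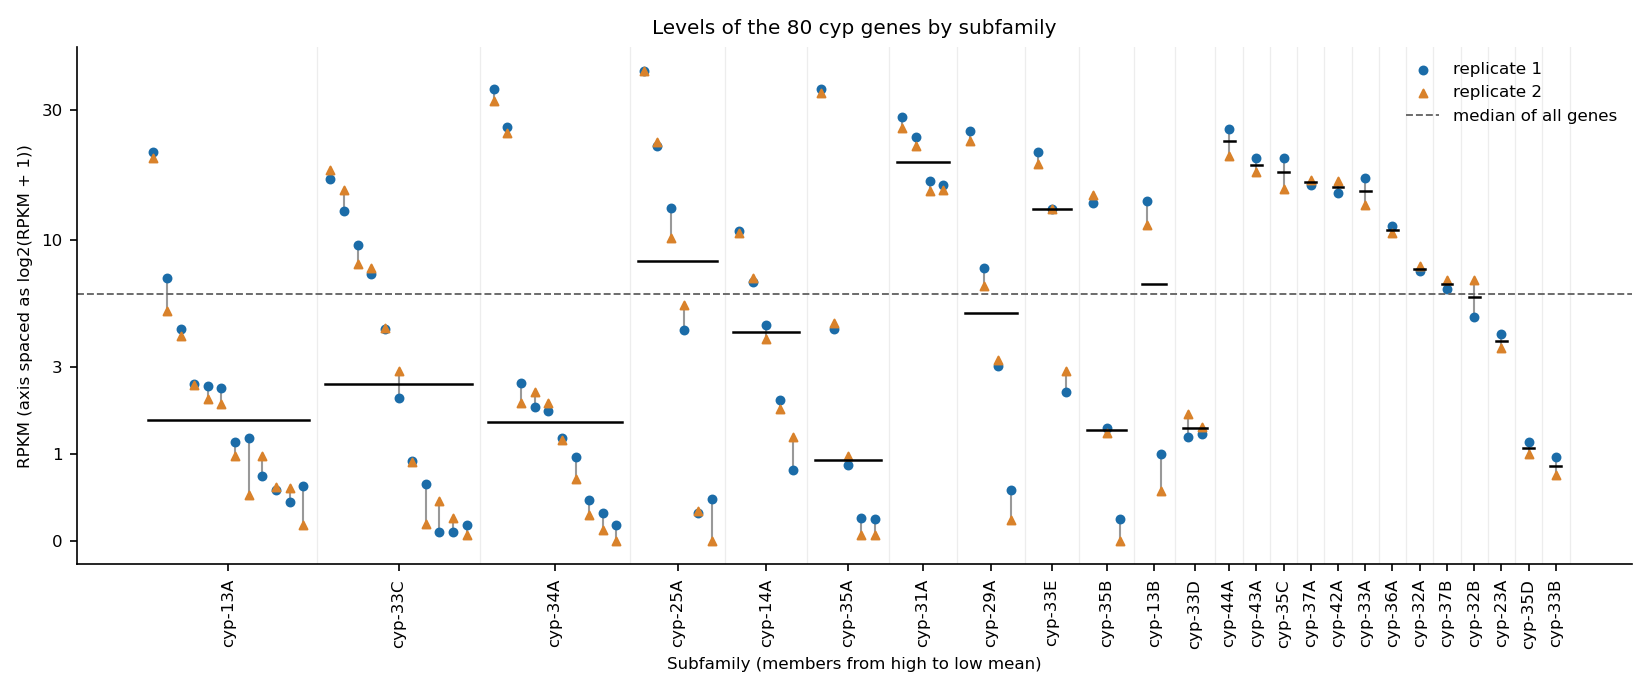
RPKM of each of the 80 cyp genes (vertical axis spaced as log2(RPKM + 1)), grouped by subfamily and ordered within it from high to low mean, with replicate 1 as circles, replicate 2 as triangles, the subfamily median as a black line and the median of all genes as a dashed line. The large subfamilies run from above 15 RPKM to below 1 RPKM, while all 4 cyp-31A genes lie above 15 RPKM.

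Levels were spread widely within the large subfamilies. The table held 25 subfamilies, of which 10 had 3 or more members and 13 had a single one. Members of a subfamily descend from duplications and are not replicates, so medians are given without a test. For the counts below, 72% of all genes had a mean of at least 1 RPKM and 42% a mean of at least 10 RPKM. In the largest, cyp-13A, 7 of 12 members had a mean of at least 1 RPKM and the median was 1.63 RPKM, with cyp-13A5 highest and cyp-13A7 lowest at 0.55 and 0.13 RPKM. In cyp-33C, 6 of 11 members reached 1 RPKM and the median was 2.49 RPKM, from cyp-33C8 at 16.8 and 18.2 RPKM down to cyp-33C11 at 0.13 and 0.05 RPKM. In cyp-34A, 6 of 10 members reached 1 RPKM and the median was 1.58 RPKM, with the pair cyp-34A8 and cyp-34A9 far above the other 8, of which the highest was cyp-34A4 at 2.52 and 2 RPKM. In cyp-13A and cyp-34A the higher level thus rested on 1 and 2 members, while in cyp-33C the levels were graded.

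The cyp-31A genes stood apart in this respect, since all 4 were above 10 RPKM in both replicates and the median was 19.5 RPKM. cyp-31A2 and cyp-31A3 are known to act together in making lipids of the eggshell, which keep it impermeable. cyp-31A2 was at a mean of 27.1 ± 1.8 RPKM, cyp-31A5 at 23.1 ± 1.15 RPKM and cyp-31A3 at 15.7 ± 0.53 RPKM. The fourth, cyp-31A1, is annotated by RefSeq as a pseudogene and was nevertheless at 16.5 and 15.3 RPKM. The 4 genes lie apart from each other on chromosome IV. Together they came to 84.9 RPKM in replicate 1 and 78.7 RPKM in replicate 2. How the authors assigned reads that fit several members of a subfamily is not known, and sequence identity was not computed, so the split of this sum among the 4 genes is uncertain. The coding sequence of cyp-31A5 is annotated at no more than 927 bases, shorter than the 1488 bases of cyp-31A2 and cyp-31A3.

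Other subfamilies with several high members were cyp-25A and cyp-33E. Of 6 cyp-25A genes, 4 had a mean of at least 1 RPKM and the median was 8.30 RPKM. These 4 lie in 1 run on chromosome III, with cyp-25A4 at 10009 bp from cyp-25A3. The other 2 lie on chromosome IV. cyp-25A5, annotated as a pseudogene, was at 0.40 and 0 RPKM, and cyp-25A6, with 708 coding bases, at 0.25 and 0.27 RPKM. Among the 3 cyp-33E genes the median was 13.1 RPKM. cyp-33E2, which in the worm turns eicosapentaenoic acid into signalling products and is known from the pharynx, was at 13.1 and 13.05 RPKM (SD 0.035). The short gene cyp-33E3, annotated with 711 coding bases, was lowest at 2.27 and 2.88 RPKM.

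The cyp-29A genes had a median of 5.16 RPKM. cyp-29A2 was highest and cyp-29A1, annotated as a pseudogene, lowest at 0.50 and 0.18 RPKM. cyp-29A3, which like cyp-33E2 acts on eicosapentaenoic acid, was at 7.78 and 6.64 RPKM. All 5 cyp-14A genes had a mean of at least 1 RPKM, with a median of 4.27 RPKM. They ranged from cyp-14A5 at 10.8 ± 0.13 RPKM through cyp-14A2 at 6.99 ± 0.18, cyp-14A1 at 4.27 ± 0.41 and cyp-14A4 at 1.96 ± 0.15 RPKM to cyp-14A3 at 1.02 ± 0.37 RPKM.

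The cyp-35 genes are the worm's best known P450 genes induced by foreign compounds, and their levels here were uneven. Of the 5 cyp-35A genes, cyp-35A2 stood far above the rest, and it held most of the subfamily's sum of 41.2 RPKM in replicate 1 and 40.2 RPKM in replicate 2. cyp-35A5 was at 4.41 and 4.69 RPKM, cyp-35A3 at 0.83 and 0.97 RPKM, cyp-35A1 at 0.20 and 0.05 RPKM and cyp-35A4 at 0.19 and 0.05 RPKM. The subfamily median of 0.90 RPKM was the lowest among the 10 subfamilies with 3 or more members. cyp-35C1 was at 20.1 and 15.6 RPKM. cyp-35D1, the enzyme gene that in the worm breaks down the anthelmintic thiabendazole, was low at 1.2 and 1 RPKM.

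cyp-35B1 and cyp-34A9 also carry the names dod-13 and dod-16, given to genes found downstream of the insulin-regulated factor DAF-16. cyp-35B1 was at 13.7 and 14.7 RPKM (mean 14.2 ± 0.71), on chromosome V from 3939032 to 3941237. The 2 other cyp-35B genes were lower, cyp-35B2 at 1.45 and 1.37 RPKM and cyp-35B3 at 0.19 and 0 RPKM. cyp-34A9 was at a mean of 25.3 ± 0.93 RPKM.

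Single-member subfamilies lay higher on the whole than the large ones. Of these 13 genes, 12 had a mean of at least 1 RPKM and 7 a mean of at least 10 RPKM, with a median of 11.3 RPKM in replicate 1 and 10.6 RPKM in replicate 2. Of the 39 members in subfamilies of 6 or more, 23 reached 1 RPKM and 8 reached 10 RPKM, with medians of 1.90 and 1.99 RPKM. The single genes included cyp-44A1, cyp-43A1, cyp-35C1, cyp-37A1 at 16.4 ± 0.47 RPKM, cyp-42A1 at 15.8 ± 1.18 RPKM and cyp-33A1 at 15.2 ± 2.49 RPKM. cyp-36A1, which acts downstream of the oxygen-sensing EGL-9 and HIF-1 pathway in the control of behaviour, was at 11.3 and 10.6 RPKM. The lower ones were cyp-32A1 at 7.74 ± 0.23, cyp-37B1 at 6.73 ± 0.39, cyp-32B1 at 5.98 ± 1.45 and cyp-23A1 at 3.93 ± 0.38 RPKM, and the lowest was cyp-33B1 at 0.82 ± 0.18 RPKM. In the subfamilies of 2, cyp-13B1 was at 14.02 and 11.4 RPKM against 0.99 and 0.49 RPKM for cyp-13B2, and cyp-33D1 and cyp-33D3 were close together at means of 1.42 and 1.51 RPKM.

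By clan, the 13 CYP4 genes were the higher group. Their median was 15.7 RPKM. Of the 13, 12 (92.3%) had a mean of at least 1 RPKM and 7 (53.8%) of at least 10 RPKM, beside 72% and 42% of all genes. Among 45 CYP2 genes the median was 2.09 RPKM, with 31 (68.9%) past the lower and 12 (26.7%) past the higher of these levels. Among 21 CYP3 genes the median was 2.27 RPKM, and 13 (61.9%) and 6 (28.6%) were past them. All 3 clans nevertheless held members above 25 RPKM. The CYP2 and CYP3 clans hold all 4 subfamilies of 6 or more members, cyp-13A, cyp-25A, cyp-33C and cyp-34A, so clan and subfamily size overlap. The CYP4 median also rests in part on the 4 cyp-31A genes, whose split of reads is uncertain and which include a pseudogene. In the rest of that clan, the cyp-29A median was 5.16 RPKM, and cyp-32A1, cyp-37B1 and cyp-32B1 were at 7.74, 6.73 and 5.98 RPKM. The other members, cyp-37A1 and cyp-42A1, were at 16.4 and 15.8 RPKM.

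**Figure D2:**
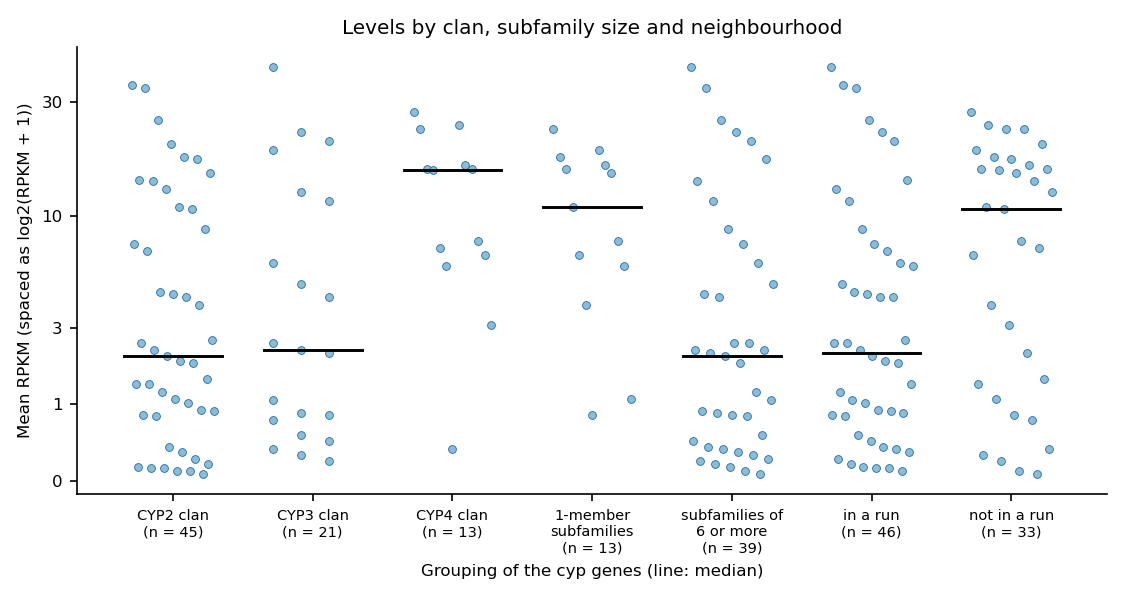
Mean RPKM of each cyp gene (points, vertical axis spaced as log2(RPKM + 1)) by clan, by size of subfamily and by whether another cyp gene lies within 20 kb, with group medians as black lines. cyp-44A1, alone in the mitochondrial clan, is not drawn as a clan. The medians of the CYP4 clan, of single-member subfamilies and of genes outside a run are at 15.7, 10.9 and 10.8 RPKM, and the medians of the CYP2 clan, the CYP3 clan, subfamilies of 6 or more and genes in a run are 2.09, 2.27, 2.09 and 2.18 RPKM.

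Of the 80 members, 79 have a position in WBcel235, and 42 of them (53.2%) lie on chromosome V, which holds 24.2% of all genes with a position. Only cyp-36A1 lies on chromosome I. With members counted as neighbours when at most 20 kb apart, 46 members formed 11 runs and 33 stood alone. Members in runs had a median of 2.18 RPKM and members standing alone 10.8 RPKM. At 10 RPKM or more were 9 of the 46 in runs (19.6%) and 17 of the 33 alone (51.5%), beside 42% of all genes. Runs consist mainly of large subfamilies, so neighbourhood and subfamily size overlap as well.

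The longest run spans 36.7 kb of chromosome V, from 3936326 to 3972991, with 4 cyp-35 genes followed by 6 cyp-34A genes on the opposite strand. cyp-34A8 and cyp-34A9 lie next to each other within it, and both were above 20 RPKM. Their outer neighbours were low, with cyp-34A7 at 0.38 and 0.23 RPKM and cyp-34A10 at 0.95 and 0.64 RPKM. cyp-34A7 rested on about 6 and 5 reads. The remaining cyp-34A genes of the run, cyp-34A5 and cyp-34A6, were at means of 1.25 and 2.09 RPKM. Among the cyp-35 genes of this run, cyp-35B1 was highest.

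A run of 9 cyp-13A genes spans 28.4 kb of chromosome II, from 9779181 to 9807569. A single gene, cyp-13A5, held 61.9% of its summed mean RPKM, and cyp-13A2 followed at 7.11 and 5.25 RPKM. cyp-13A6 was at 2.50 and 2.45 RPKM, and the other 6 were at a mean of 0.34 to 1.08 RPKM. Outside it lie cyp-13A10 at 2.37 and 1.97 RPKM and, on chromosome III, the neighbours cyp-13A11 at 4.4 and 4.13 RPKM and cyp-13A12 at 2.44 and 2.10 RPKM. cyp-13A12 is known from the response of worms to the return of oxygen.

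In a run of 5 cyp-33C genes on chromosome V, cyp-33C6 was at 0.07 and 0.20 RPKM, on about 1 and 4 reads. On either side of it were cyp-33C5 at 7.35 and 7.77 RPKM and cyp-33C7 at 9.52 and 8.04 RPKM. cyp-33C6 lies on the strand opposite to the other 4. In the pair cyp-35A1 and cyp-35A2, 545 bp apart on the same strand, cyp-35A1 had about 3 and 1 reads and cyp-35A2 about 555 and 750. The cyp-25A run on chromosome III was the one with all 4 members above 4 RPKM in both replicates, and the cyp-14A run on chromosome X held 4 genes between 1.02 and 6.99 RPKM in the mean.

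How unlike neighbours were, beside other pairs of genes, depended on the scale. Neighbouring members were successive cyp genes at most 20 kb apart, whether or not another gene lay between them. Neighbouring genes of the whole table were adjacent among the matched genes of a chromosome, at any distance, so the 2 kinds of pair are not alike. Over the 35 pairs of neighbouring members, the median absolute difference of log2(mean RPKM + 1) was 1.31, and 28.6% of pairs differed by more than 2. Over all 3160 pairs of members the median difference was 1.61, and over 18882 pairs of neighbouring genes of the whole table it was 1.63, with 42.7% of pairs beyond 2 in both cases. Over the 221 pairs within a subfamily, neighbouring or not, it was 1.36, with 35.3% beyond 2. This scale compresses differences between low genes, of which the runs hold many. As plain ratios of mean RPKM, neighbouring members differed by a median of 6.85-fold, against 5.73-fold for all pairs of members, 5.50-fold within subfamilies and 5.05-fold for neighbouring genes of the whole table. More than 4-fold apart were 57.1% of neighbouring members, 58.4% of all pairs of members, 57.5% of pairs within a subfamily and 55.9% of neighbouring genes of the table. Plain ratios of members with few reads carry a large counting error, and no difference between these sets of pairs was tested.

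**Figure D3:**
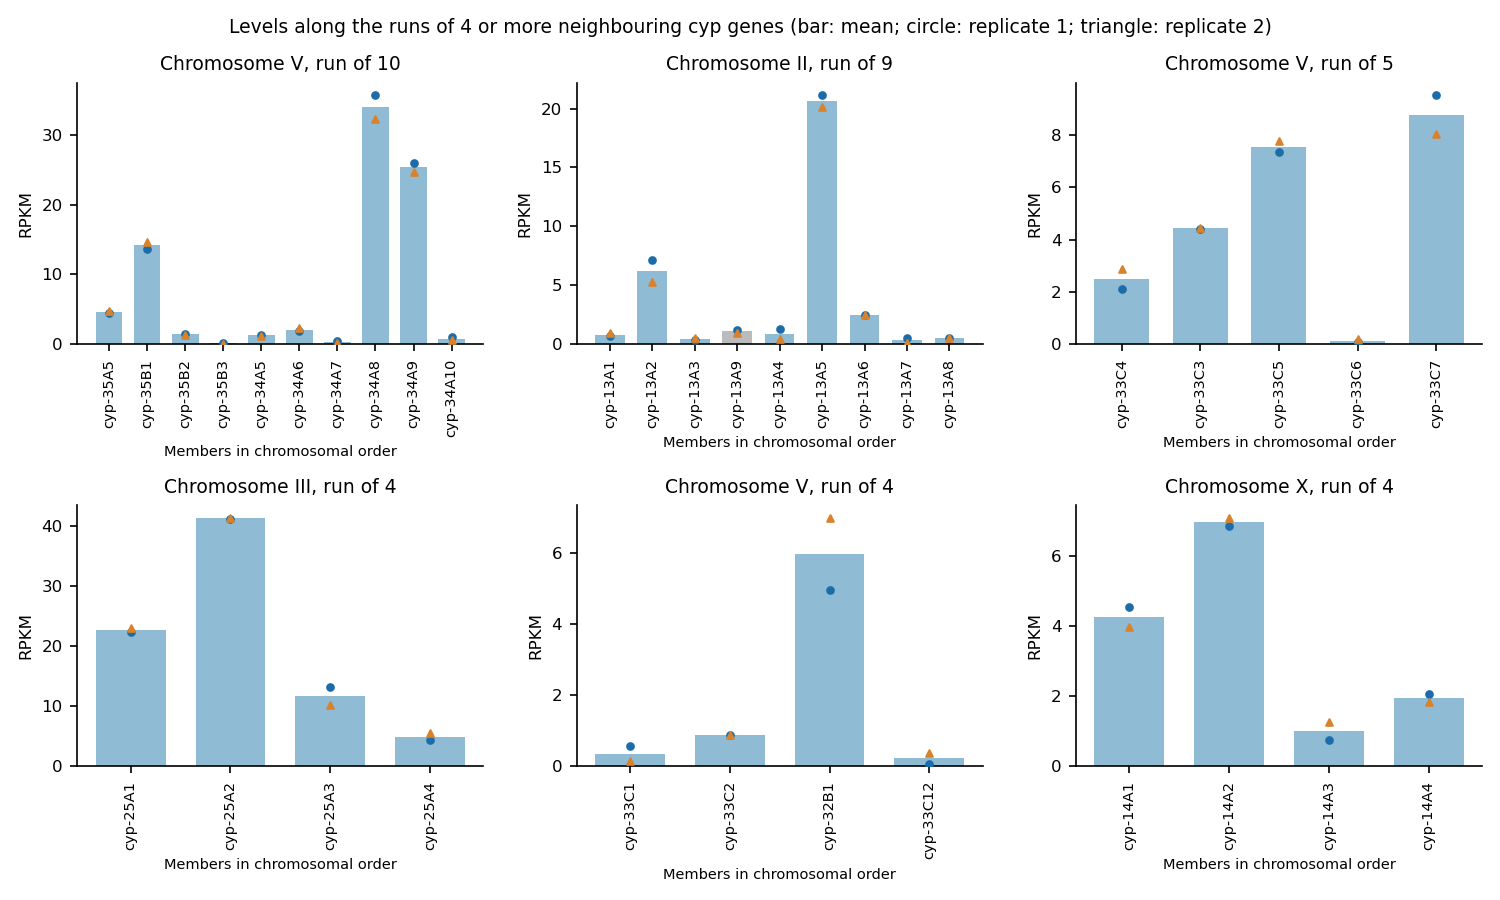
RPKM of the members of the 6 runs of 4 or more neighbouring cyp genes in chromosomal order, with bars for the mean, circles for replicate 1, triangles for replicate 2 and a grey bar for the gene annotated as a pseudogene. In the runs of 10 and 9 genes, cyp-34A8 with cyp-34A9 and cyp-13A5 rise above low neighbours.

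Members were alike in length, so the order of their RPKM is nearly the order of their read numbers. Of the 74 members with a coding length, 70 had one between 1470 and 1605 bases, and the median was 1500. The 4 shorter ones were cyp-25A6 with 708, cyp-33E3 with 711, cyp-31A5 with 927 and cyp-33C12 with 1281 bases. Coding exons numbered 4 to 11 per gene. All 5 cyp-14A genes and all 5 cyp-35A genes had 7, though their levels spanned from 0.12 to 34.995 RPKM in the mean. Of the 5 members annotated as pseudogenes, cyp-31A1 was the one above 10 RPKM and cyp-13A9 was at 1.2 and 0.96 RPKM. The other 3, cyp-25A5, cyp-29A1 and cyp-34A3, had a mean under 1 RPKM.

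P450 enzymes need partners, and 4 of the genes that pass electrons to them were above every cyp gene. The NADPH P450 reductase gene emb-8 was at 97.0 and 93.4 RPKM (mean 95.2 ± 2.58), above all 80 members. The summed RPKM of the family was 6.80 times that of emb-8 in replicate 1 and 6.70 times in replicate 2. The cytochrome b5 genes, whose product can pass a second electron to P450 enzymes, were at 256 ± 12.1 RPKM for cytb-5.1 and 326 ± 24.5 RPKM for cytb-5.2. The cytochrome b5 reductase gene hpo-19 was at 248 ± 11.2 RPKM, while T05H4.4, of the same function, was at 1.98 and 1.12 RPKM. daf-9, a P450 gene of dafachronic acid synthesis that has no cyp name, was at 1.86 and 2.49 RPKM, below 46 of the 80 members.

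The worm makes no haem and takes up the cofactor from its food. Of the 8 genes on the list of haem uptake and trafficking, 7 were measured, with a median of 30.7 RPKM. All 7 had a mean of at least 1 RPKM, as did 72% of all genes. hrg-7, listed under its sequence name C15C8.3 and known to signal haem status between tissues, was at 249 and 245 RPKM. The transporter genes of the intestine hrg-1 and hrg-4 were at 53.1 ± 1.95 and 34.1 ± 3.21 RPKM, and mrp-5, an exporter of haem from that tissue, at 30.7 ± 0.16 RPKM. hrg-6 was at 10.9 ± 1.13 RPKM. hrg-3, which carries haem from mother to embryo, was at 3.38 ± 0.25 RPKM and hrg-5 at 1.55 ± 0.81 RPKM.

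Among regulators, 12 of the 14 listed were measured, with a median of 25.7 RPKM. All 12 had a mean of at least 1 RPKM, a level that 72% of all genes reached. skn-1, an oxidative stress factor, was at 60.2 ± 0.28 RPKM, nhr-49, a receptor of fat metabolism, at 54.8 ± 4.47 RPKM and pqm-1 at 53.1 ± 3.97 RPKM. These 3 were above every cyp gene. mdt-15, a Mediator subunit, was at 39.7 ± 1.39 RPKM, daf-16 at 35.7 ± 0.90 RPKM, nhr-8, a receptor of toxin resistance, at 28.985 ± 0.39 RPKM and elt-2, the GATA factor of the intestine, at 22.5 ± 1.5 RPKM. nhr-46 was at 21.8 ± 1.13 RPKM, aha-1 at 17.3 ± 0.53 RPKM and nhr-86 at 17.2 ± 1.53 RPKM. nhr-176, through which thiabendazole induces cyp-35D1, was at 6.31 ± 0.26 RPKM. ahr-1, the worm's aryl hydrocarbon receptor, was the lowest at 1.42 and 1.4 RPKM. hif-1 and egl-9 are present only as rows for parts of the gene and were not analysed here.

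RNA of enzymes that act on P450 products was present too. The epoxide hydrolase genes ceeh-1 and ceeh-2, which open fatty acid epoxides, were at 21.3 ± 0.997 and 36.4 ± 1.26 RPKM. RNA of conjugating enzymes was more abundant by family, as summed RPKM. The 65 ugt genes had a median of 7.49 and 8.02 RPKM in the replicates and summed to 1264 ± 69.6 RPKM, with 55 at a mean of at least 1 RPKM. The 42 gst genes had a median of 10.4 and 11.2 RPKM and summed to 3053 ± 22.5 RPKM, with 38 at a mean of at least 1 RPKM and 11 at 100 RPKM or more. The 80 cyp genes summed to 642 ± 23.9 RPKM. In the whole table, 72% of genes had a mean of at least 1 RPKM and 7.63% a mean of at least 100 RPKM.

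**Figure D4:**
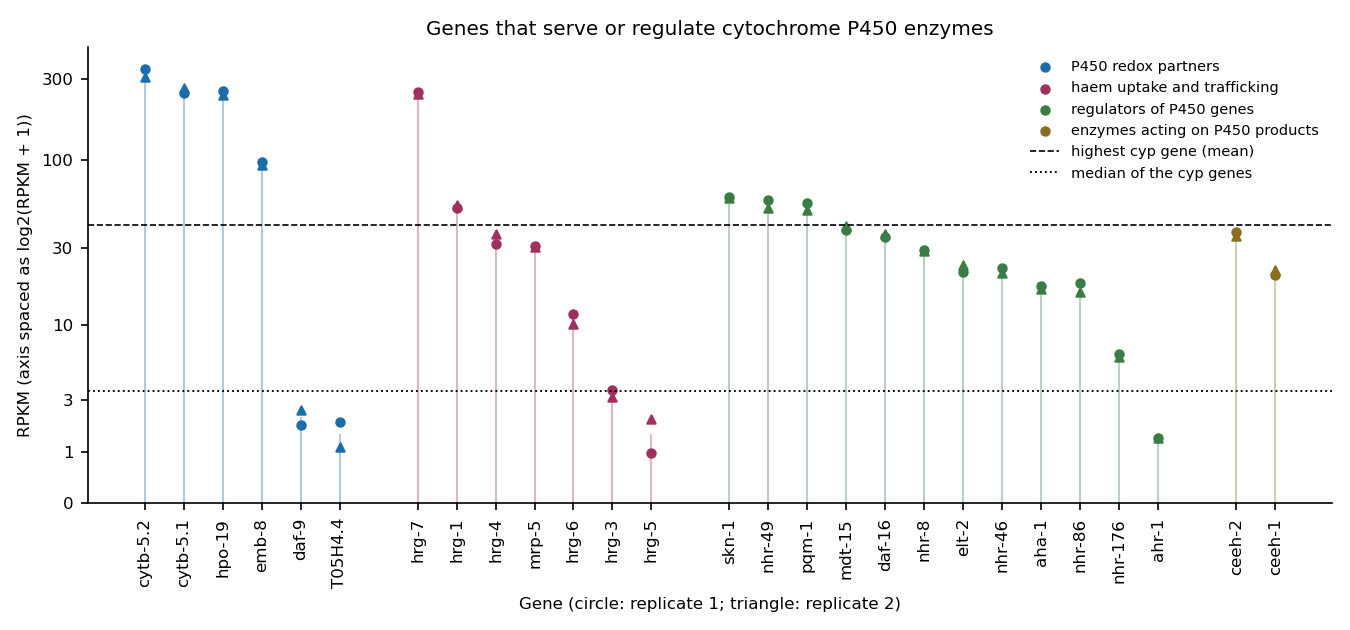
RPKM (vertical axis spaced as log2(RPKM + 1)) of the genes on the lists of redox partners, haem handling, regulators and enzymes acting on P450 products, with circles for replicate 1 and triangles for replicate 2. The dashed line is the highest cyp gene at 41.3 RPKM and the dotted line the family median at 3.52 RPKM. The genes emb-8, cytb-5.1, cytb-5.2, hpo-19 and hrg-7 lie above 90 RPKM. daf-9 is drawn with the redox partners, though it is itself a P450 gene.

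The replicates agreed closely across the family. Over the 80 members, which are not independent, the values on the log2(RPKM + 1) scale had a Pearson's r of 0.991 and a Spearman's rho of 0.985 between the libraries, as a description. Among the 57 members with a mean of at least 1 RPKM, none lay beyond 2-fold between replicates, beside 0.713% of all such genes. Their log2 ratios of replicate 2 to replicate 1 ran from -0.38 to 0.43, with a median of -0.05 and an SD of 0.18. For all such genes the median was -0.02 and the SD 0.25. Of the 57, 34 were higher in replicate 1 and 23 in replicate 2. The whole table leaned the same way, with 7940 of all 14313 such genes higher in replicate 1 and 6331 in replicate 2.

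Among these 57 members, the ratios farthest toward replicate 2 were those of cyp-32B1 at 4.95 and 7 RPKM, cyp-14A3 at 0.76 and 1.28 RPKM and cyp-33C4 at 2.11 and 2.86 RPKM. Farthest toward replicate 1 were cyp-13A2 at 7.11 and 5.25 RPKM, cyp-35C1 at 20.1 and 15.6 RPKM and cyp-25A3 at 13.1 and 10.2 RPKM. Members with a lower mean reached farther, as cyp-13A4 at 1.27 and 0.44 RPKM, on about 21 and 10 reads. The Poisson intervals of the replicates were separate in 2 of the 74 members with estimated reads, 2.70% beside 6.04% of all such genes. These were cyp-44A1, with intervals of 23.2 to 28.4 and 18.6 to 22.5 RPKM, and cyp-35C1, with 17.9 to 22.5 and 13.9 to 17.3 RPKM. For the other 72 the difference between replicates was not detectable by this measure.

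**Figure D5:**
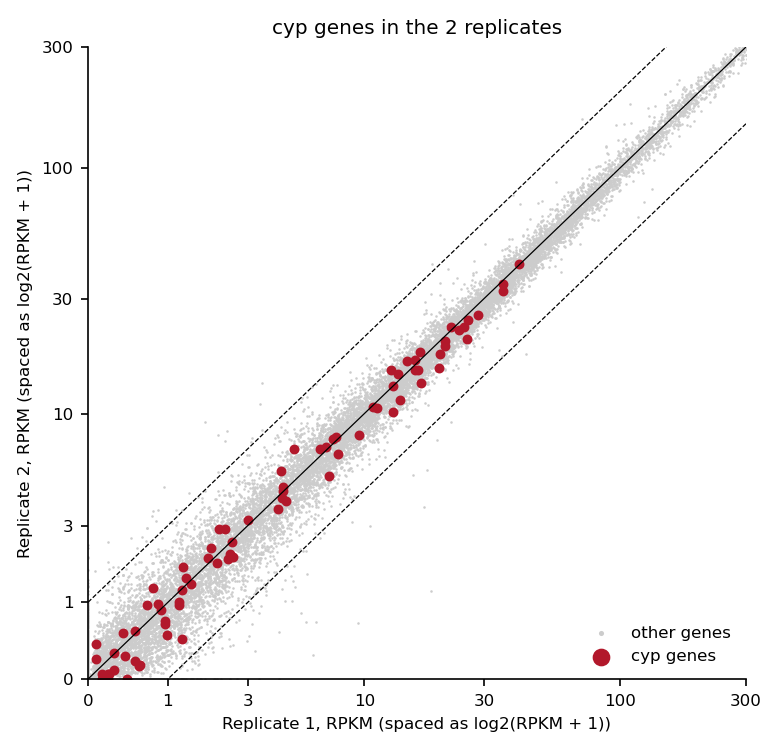
RPKM in replicate 2 against replicate 1 for the cyp genes (red) and all other genes (grey), both axes spaced as log2(RPKM + 1) with the highest genes beyond the axes, and with the line of equality and dashed lines at 2-fold on that scale. All cyp genes lie between the dashed lines.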

How the data were processed

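RNA sequencing libraries were made from total RNA with a TruSeq kit, per the labels' protocols, and CASAVA 1.8.2 is named in the processing notes of the submitters. Aligner, counting method, annotation and genome build: not given in the sources used here. Per the file headers, the deposited table holds the authors' RPKM values. Because RPKM is not a count, no count model was used. Commas within large values were removed (205 and 208 values). Of 19990 rows, 104 coordinate rows and 12 rows with a repeated name were left out.

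Genes were matched to Ensembl release 115 (WBcel235) by symbol (16043) or sequence name (2845), and 986 were not matched. Of the members, 74 matched there, 5 took position and biotype from RefSeq, whose table is of the same assembly, and cyp-34A4 had no position. Of 80 annotated cyp symbols, 1 was not among the genes analysed, so the members are not the whole annotated family. Depth was the step at which RPKM times coding length was whole, within 0.1 read, for 86.2% of 3524 low values in replicate 1 and 86.6% of 2680 in replicate 2, where chance gives 20%. Only genes with 1 annotated coding length entered this step. Estimated reads use the longest coding sequence.

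Both samples form 1 group, so no test was possible and no p-value was calculated. Ratios of replicates were taken after adding 1 RPKM, on a log2 scale that compresses the ratios of low genes, for a mean of at least 1 RPKM and a limit of 2-fold. Intervals are exact Poisson intervals at 95%. The spread between replicates may be technical.

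The members and lists were chosen with earlier results of these data known. Named genes followed a rule: the 12 highest members, the highest and lowest of each subfamily with 3 or more, the 3 largest replicate ratios each way, members with known roles, and the lists. Values of further members are given as an account of the family, and the limit of 20 kb for runs, the clans, the grouping by subfamily size and the plain ratios of neighbours were chosen after values were seen. On simulated reads of 13741 genes, depths of 9000000 and 16000000 were recovered as 8995000 and 15995000. All 200 genes changed by 2 (log2), drawn only from genes that were not low, lay beyond 2-fold, with 38 of 9749 unchanged genes. A change of that size is well past the limit. The simulated reads held counting error only, so the simulation does not cover changes in low members or the spread of real replicates. Figures were drawn with matplotlib 3.10.9, and values computed in Python 3.11.15 with pandas 2.3.3, scipy 1.17.1 and numpy 2.4.6.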

Additional observations from a re-analysis of the deposited data

How the results depend on the processing

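With 2 replicates, leaving 1 out gives back the other's own value (a family median of 3.435 or 3.61 RPKM), and a search by annotated symbol added 0 members, so neither bears on stability. Of the other 73 alternative values, 55 stayed within the replicate spread, or within 1.5 times for counts, among them those under rescaling to an equal sum and under quantile normalization. These 2 scalings bring both libraries toward their average, so a mean of the replicates could hardly leave that spread. Leaving out pseudogenes or low members cannot move a subfamily that has none. Many of the 55 were thus nearly fixed in advance, and their number is no measure of stability. No member passed 2-fold between replicates under any pseudocount, filter or scaling that was run. The smaller pseudocounts, 0.1 and 0.5 RPKM, were run only for members with a mean of at least 1 RPKM. The run without that filter added 1 RPKM, which compresses the ratios of low members, so it cannot speak for them. Before that addition, cyp-33C12 was at 0.07 and 0.37 RPKM and cyp-13A7 at 0.55 and 0.13 RPKM in replicates 1 and 2. A limit of 1.5-fold, run only with 1 RPKM added, was passed by 0 members with a mean of at least 1 RPKM. With pseudogenes left out, the median rose to 4.27 RPKM for the family, 2.17 for cyp-13A, 11.7 for cyp-25A, 7.21 for cyp-29A, 23.1 for cyp-31A and 1.91 for cyp-34A. With members under a mean of 1 RPKM left out, it was 7.56 RPKM for the family, 2.48 for cyp-13A, 17.2 for cyp-25A, 7.21 for cyp-29A, 8.17 for cyp-33C, 2.18 for cyp-34A, 19.8 for cyp-35A and 7.81 for cyp-35B, because low members were removed. The same setting gave a median of 13.1 RPKM for single-member subfamilies, a result for which it was added after seeing the data. A floor of 10 reads held 11 members. At most 50 kb apart, an alternative also added after seeing the data, 47 members stood in runs. On plain ratios, added likewise, 57.1% of neighbouring pairs of members were more than 4-fold apart, against 28.6% with 1 RPKM added. No paired analysis was possible because there is only 1 group. Depth limits the members under about 1 RPKM, which rest on few reads.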
